A study of Mus musculus with 6 samples.

Results

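The signal recognition particle (SRP) genes of the mouse cortex at E18.5 are described here as 10 genes of the gene table, out of 59484 features in all. Their members were taken by gene symbol: the 3 *Srp54* copies (*Srp54a*, *Srp54b*, *Srp54c*), the other subunits that sit in the S domain of the particle (*Srp19*, *Srp68*, *Srp72*), the Alu-domain subunits (*Srp9*, *Srp14*) and the SRP receptor (*Srpr*, *Srprb*). The family was chosen by the rise of *Srp54b* in the double knockout, so the values of *Srp54b* in this contrast are a description and carry no test. The other 9 genes were taken by name and were tested. *Srp54a* and *Srp54c* may share reads with *Srp54b*, so their tests may not be independent of this choice. PolyA+ RNA was sequenced from whole cortex at embryonic day 18.5 of 3 wild-type samples and of 3 samples whose labels give a knockout of *Sam68* together with *Slm2* (*Sam68:Slm2* dKO), all on a C57BL/6 background. Sam68 and SLM2 are related proteins of the STAR family that bind RNA and regulate splicing, and the comparison asks what changes in the embryonic cortex when both are absent. Nothing in the labels gives the embryo or litter behind a library, and the *P*-values measure the spread between these libraries, which may be in part technical.

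SRP recognizes the signal sequence of a secretory or membrane protein as it leaves the ribosome, slows translation and brings the ribosome to the endoplasmic reticulum (ER). SRP54 is the GTPase that binds the signal sequence, and it pairs with the GTPase of the SRP receptor at the ER membrane, where the nascent chain passes into the Sec61 channel. A neuron depends on this route for its receptors, channels and adhesion proteins, but the same machinery is used in every cell.

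The libraries hold between 31837922 and 40896541 reads on the listed features, recovered from deposited values that are read counts divided by a size factor of each library (normalized counts). *Khdrbs1*, which encodes Sam68, fell from 8213 ± 232 to 152 ± 41.5 normalized counts (SD, n = 3 libraries), and *Khdrbs3*, which encodes SLM2, fell from 13841 ± 1250 to 6652 ± 366, with adjusted p = 1.08e-07 and 0.000855 from limma. A value covers the whole gene, so reads from exons outside a deleted part still count in it. Where the reads left in the dKO libraries lie was not tested. All 8 cortex markers were present, with summed levels of 94829 to 127812 normalized counts in wild-type and 107446 to 140505 in dKO libraries, and 8 of 8 had positive log2 fold changes, 3 of them with an unadjusted *P*-value under 0.05. The summed markers of choroid plexus were near 0 (18 to 109 against 27 to 63 normalized counts), and only 2 of the 5 were tested. Those of endothelial cells (4414 to 5686 against 4189 to 4789) and meningeal fibroblasts (273 to 924 against 272 to 338) had negative log2 fold changes for 5 of 5 and 4 of 4 genes, while 6 of 6 erythroid genes had positive ones (54069 to 67789 against 55428 to 80798). In the remaining lists, 4 of 6 genes of radial glia and intermediate progenitors (30216 to 38525 against 32346 to 39303), 3 of 6 of ganglionic eminence and interneurons (6112 to 7889 against 5663 to 7643) and 2 of 5 of microglia (1576 to 2201 against 1655 to 1924) had positive ones. No tested gene of these lists had an adjusted *P*-value under 0.05, although 10 of them had an unadjusted one. These were 3 of 8 cortex, 4 of 6 progenitor, 2 of 5 endothelial and 1 of 4 meningeal genes, beside 11.5% of all features tested. The part of these lists in the values of the SRP genes was not tested. The 2 libraries numbered 1 stood apart from their groups, in that their deviations from the group mean rose with exon length (Spearman's rho across 14191 genes 0.28 and 0.34, against -0.24 to -0.1 in the others).

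The *Srp54* copies lie one after the other on chromosome 12 (mm10), on the plus strand, over 198.8 kb. *Srp54a* (FAST database identifier GSMG0008075) runs from 55080496 to 55115367, *Srp54b* (GSMG0052722) follows after 39.7 kb from 55155103 to 55189575, and *Srp54c* (GSMG0052721) follows after another 40.9 kb from 55230439 to 55279329. The last of these spans runs 15493 bases past the end of *Srp54c* in GENCODE release M21 and overlaps the neighbouring gene *Ppp2r3c* by 339 bases. In GENCODE release M21 the longest coding transcript of each copy has 16 exons and a coding sequence of 1515 bases. The coding sequences of *Srp54a* and *Srp54b* are the same base for base. That of *Srp54c* differs from both at 6 positions (T501C, T945C, G946A, T965G, A1197T and G1249A, counted from 1 at the A of the start codon, with the base of *Srp54a* and *Srp54b* first), an identity of 99.6%.

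The stretches around these 6 positions are shown because they are the only coding bases by which a read can be given to *Srp54c* and not to the other copies. They are read 5′ to 3′ on the plus strand of the GENCODE release M21 transcripts, and capitals mark the bases at which *Srp54c* differs. Coding bases 481 to 521, which cross an exon junction and in *Srp54b* lie between 55172369 and 55175008 on chromosome 12, read
Srp54a: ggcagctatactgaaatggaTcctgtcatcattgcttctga
Srp54b: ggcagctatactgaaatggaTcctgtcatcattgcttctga
Srp54c: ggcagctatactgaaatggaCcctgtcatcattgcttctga

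Coding bases 925 to 985 also cross an exon junction, lie between 55177566 and 55180262 in *Srp54b*, and hold 3 of the differences.
Srp54a: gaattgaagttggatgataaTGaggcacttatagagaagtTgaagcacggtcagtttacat
Srp54b: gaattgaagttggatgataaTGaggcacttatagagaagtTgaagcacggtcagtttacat
Srp54c: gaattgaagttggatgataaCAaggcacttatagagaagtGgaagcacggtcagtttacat

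Coding bases 1177 to 1269 lie within 1 exon, at chr12:55183582-55183674 in *Srp54b* and chr12:55257445-55257537 in *Srp54c*, and hold the remaining 2.
Srp54a: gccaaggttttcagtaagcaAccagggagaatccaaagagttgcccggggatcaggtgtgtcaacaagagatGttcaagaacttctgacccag
Srp54b: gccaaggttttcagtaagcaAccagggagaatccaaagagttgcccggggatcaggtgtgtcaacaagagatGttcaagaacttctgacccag
Srp54c: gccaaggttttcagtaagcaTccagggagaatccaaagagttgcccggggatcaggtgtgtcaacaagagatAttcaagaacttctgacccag

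Cut into every possible window of 150 bases, the length of 1 read, the longest coding transcript of *Srp54b* gives 3497 windows, of which 108 occur in no transcript of the other copies. All 108 start between bases 3172 and 3279 of the transcript and none of them lies within its coding sequence. The longest transcript of *Srp54a* has 1285 such windows of 4349, again with 0 in the coding sequence. That of *Srp54c* has 522 of 3493, and all 522 lie in the coding sequence. Over all annotated transcripts (6, 4 and 2 for *Srp54a*, *Srp54b* and *Srp54c*), 64.5%, 86.3% and 85.1% of the windows were shared with another copy, and 0 windows occurred in a transcript of any other gene. A pair of reads can span more than 150 bases, so a fragment may be placed where a single window cannot. How the authors' counting treated reads that match several copies is not given in the sources used here, and the values of the 3 copies are uncertain to that extent.

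**Figure D1:**
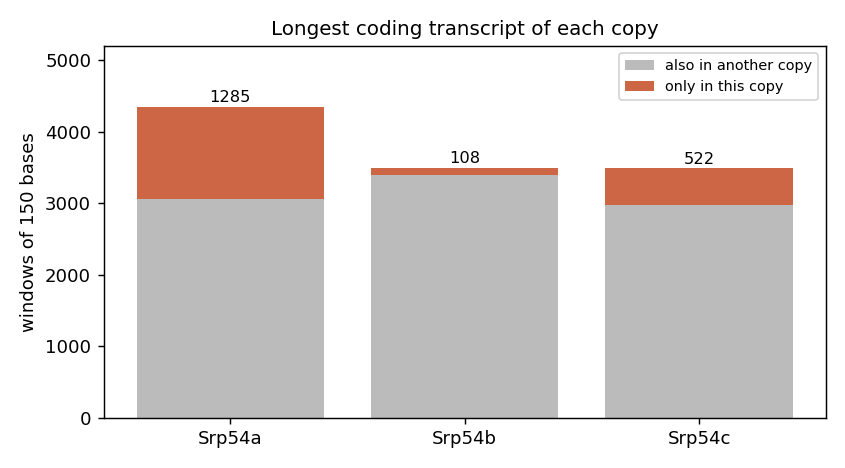
Number of 150-base windows (vertical axis) in the longest coding transcript of each *Srp54* copy, split into windows that another copy also holds (grey) and windows found in that copy alone (orange, with their number above the bar). *Srp54b* has 108 windows of its own, against 1285 in *Srp54a* and 522 in *Srp54c*.

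*Srp54b* was low in the wild-type cortex and higher in every dKO library. It had 169.3, 180.4 and 213.9 normalized counts in the 3 wild-type libraries (188 ± 23.2, SD, n = 3) and 425.6, 346.1 and 455.8 in the 3 dKO libraries (409 ± 56.7). The lowest dKO library lay above the highest wild-type library. The log2 fold change was 1.12 (standard error 0.16, 95% interval 0.76 to 1.47), a 2.17-fold rise with an interval of 1.7 to 2.77. These values rest on 168 to 244 recovered reads in wild-type and 331 to 469 in dKO libraries. Since *Srp54b* was selected on this rise, no *P*-value is given. The log2 fold change was at least 1.03 and at most 1.23 when any 1 library was left out. Without both libraries numbered 1, and under every other alternative run, it lay between 1.01 and 1.17.

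*Srp54a*, whose coding sequence is the same as that of *Srp54b*, had 2990, 3737 and 3566 normalized counts in wild-type libraries (3431 ± 391) and 4571, 3666 and 4326 in dKO libraries (4188 ± 468). The groups overlapped, since the second dKO library lay below the second wild-type library. Its log2 fold change was 0.29 (standard error 0.11, 95% interval 0.05 to 0.53), with an unadjusted p = 0.0242 and an adjusted p = 0.386 from limma, and it did not pass the threshold of 0.05. The log2 fold change was 0.19 without the first wild-type library and 0.13 without both libraries numbered 1 (adjusted p = 0.647 and 0.716 from limma).

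*Srp54c* had 3186, 3250 and 3199 normalized counts in wild-type libraries (3212 ± 33.9), which lay close together, and 3667, 2968 and 3164 in dKO libraries (3266 ± 361), which spread to both sides of them. Its log2 fold change was 0.02 (standard error 0.09, 95% interval -0.18 to 0.22, adjusted p = 0.953 from limma). The difference between the copies was not tested, since *Srp54b* chose the family. The direction of *Srp54c* turned to -0.07 without the first dKO library.

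Because reads may have been divided among the copies, they were also added up. The 3 copies together had 6346, 7168 and 6979 normalized counts in wild-type libraries (6831 ± 431) and 8664, 6980 and 7946 in dKO libraries (7863 ± 845), a ratio of means of 1.15, and the second dKO library lay within the wild-type range. *Srp54a* and *Srp54c* without *Srp54b* had 6643 ± 419 and 7454 ± 803, a difference of 811 normalized counts (p = 0.3, exact two-sided permutation test, which cannot go below 0.1 with 3 against 3). The mean of *Srp54b* was higher by fewer counts than the SD of the summed copies in either genotype.

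*Srp54b* made up a small share of this sum in both genotypes. It was 2.67%, 2.52% and 3.06% in wild-type libraries (2.75% ± 0.283) and 4.91%, 4.96% and 5.74% in dKO libraries (5.2% ± 0.463), with no overlap and a difference of 2.45 percentage points (2.19 to 2.61 when any 1 library was left out). The share of *Srp54a* was 50.1% ± 2.65 against 53.2% ± 1.05 and that of *Srp54c* was 47.1% ± 2.68 against 41.6% ± 1.51. Set against *Srp54a* alone, *Srp54b* stood at 5.66%, 4.83% and 6.0% in wild-type and at 9.31%, 9.44% and 10.5% in dKO libraries. These shares contain *Srp54b* and carry no test.

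**Figure D2:**
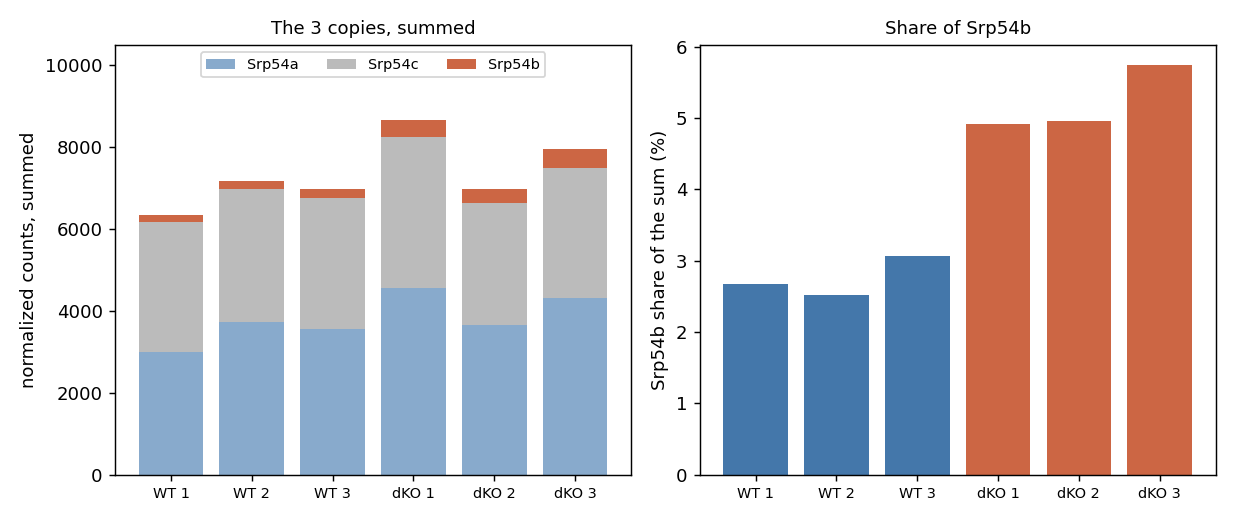
Left, normalized counts of *Srp54a*, *Srp54c* and *Srp54b* summed in each library (WT, wild-type). Right, share of *Srp54b* in that sum in percent. The summed bars of the genotypes overlap (6346 to 7168 in wild-type, 6980 to 8664 in dKO), while the share is 2.52% to 3.06% in wild-type and 4.91% to 5.74% in dKO libraries.

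Of the 9 SRP genes other than *Srp54b*, 0 passed the adjusted threshold with limma, and 0 with edgeR or DESeq2 on the recovered reads. Of all features tested, 0.1% passed it (19 of 18970). *Srp54a* and *Srp9* had unadjusted *P*-values under 0.05, which makes 2 of 9 (22.2%) against 11.5% of all features. The value of *Srp54a* may hold reads shared with *Srp54b*, which chose the family. 7 of the 9 had a log2 fold change above 0 and 2 had one below. Their median was 0.08 and their range -0.09 to 0.29. Over all features tested, 9603 were above 0 and 9367 below, with a median of 0.004. In the fit of features with a mean of at least 50 the median was 0.018. In 2 of the 9 (22.2%), *Srp9* and *Srp68*, the genotypes did not overlap, both with higher values in dKO, against 16.4% of all features in either direction and 7.89% with higher values in dKO. These shares rest on 2 genes each and are not a result about the family.

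Next to SRP54 in the S domain, SRP19 helps the SRP RNA to take up SRP54, and SRP68 and SRP72 form a heterodimer on the RNA. *Srp68* (GSMG0007658, chromosome 11 from 116245167 to 116274217) had 1068, 1052 and 979.3 normalized counts in wild-type and 1146, 1103 and 1162 in dKO libraries. Every dKO library lay above every wild-type library, but the step was small, since its log2 fold change was 0.14 (standard error 0.09, 95% interval -0.06 to 0.33, adjusted p = 0.56 from limma). Its partner *Srp72* (GSMG0029315, chromosome 5 from 76974700 to 76999935) had 3871 to 4154 normalized counts in wild-type libraries and 3772 to 4226 in dKO libraries, and its log2 fold change was -0.02 (95% interval -0.19 to 0.15, adjusted p = 0.94 from limma). *Srp19* (GSMG0018209, chromosome 18 from 34331143 to 34336598) had 1451 to 1724 in wild-type libraries and 1612 to 1814 in dKO libraries, and its log2 fold change was 0.12 (95% interval -0.09 to 0.33, adjusted p = 0.641 from limma).

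SRP9 and SRP14 form the heterodimer of the Alu domain, which slows elongation while the ribosome is brought to the membrane. *Srp9* (GSMG0001170, chromosome 1 from 182124737 to 182132415) had 2142, 2336 and 2218 normalized counts in wild-type (2232 ± 97.9) and 2424, 2555 and 2604 in dKO libraries (2528 ± 93). The groups did not overlap. The log2 fold change of 0.18 (standard error 0.08, 95% interval 0.01 to 0.35), 1.13-fold, had an unadjusted p = 0.0447 and an adjusted p = 0.423 from limma. *Srp14* (GSMG0023379, chromosome 2 from 118473752 to 118479696) had 4066, 4596 and 4714 against 4083, 5044 and 5053 normalized counts, and in each genotype the library numbered 1 was the lowest. Its log2 fold change was 0.08 (95% interval -0.15 to 0.31, adjusted p = 0.778 from limma). The span of *Srp14* overlaps that of *Eif2ak4* by 1483 bases, and the strand setting of the counting is not given in the sources used here.

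The SRP receptor consists of the GTPase SRα, the product of *Srpr*, and the membrane-anchored SRβ, the product of *Srprb*. *Srpr* (GSMG0039325, chromosome 9 from 35211178 to 35218054, overlapping *Fam118b* by 1090 bases) had 904.5, 1186 and 1254 normalized counts in wild-type and 1041, 1128 and 955.7 in dKO libraries, which lay within the wild-type range. Its log2 fold change was -0.09 (standard error 0.13, 95% interval -0.37 to 0.2, adjusted p = 0.817 from limma), the widest interval among the 9 genes. *Srprb* (GSMG0041219, chromosome 9 from 103188033 to 103202131) differed least between the genotypes, with 1981 to 2088 normalized counts in wild-type and 1983 to 2085 in dKO libraries and a log2 fold change of 0.0 (95% interval -0.17 to 0.17, adjusted p = 0.997 from limma). In whole tissue, a different number of cells of a type and a different RNA amount per cell cannot be told apart for any of these genes.

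**Figure D3:**
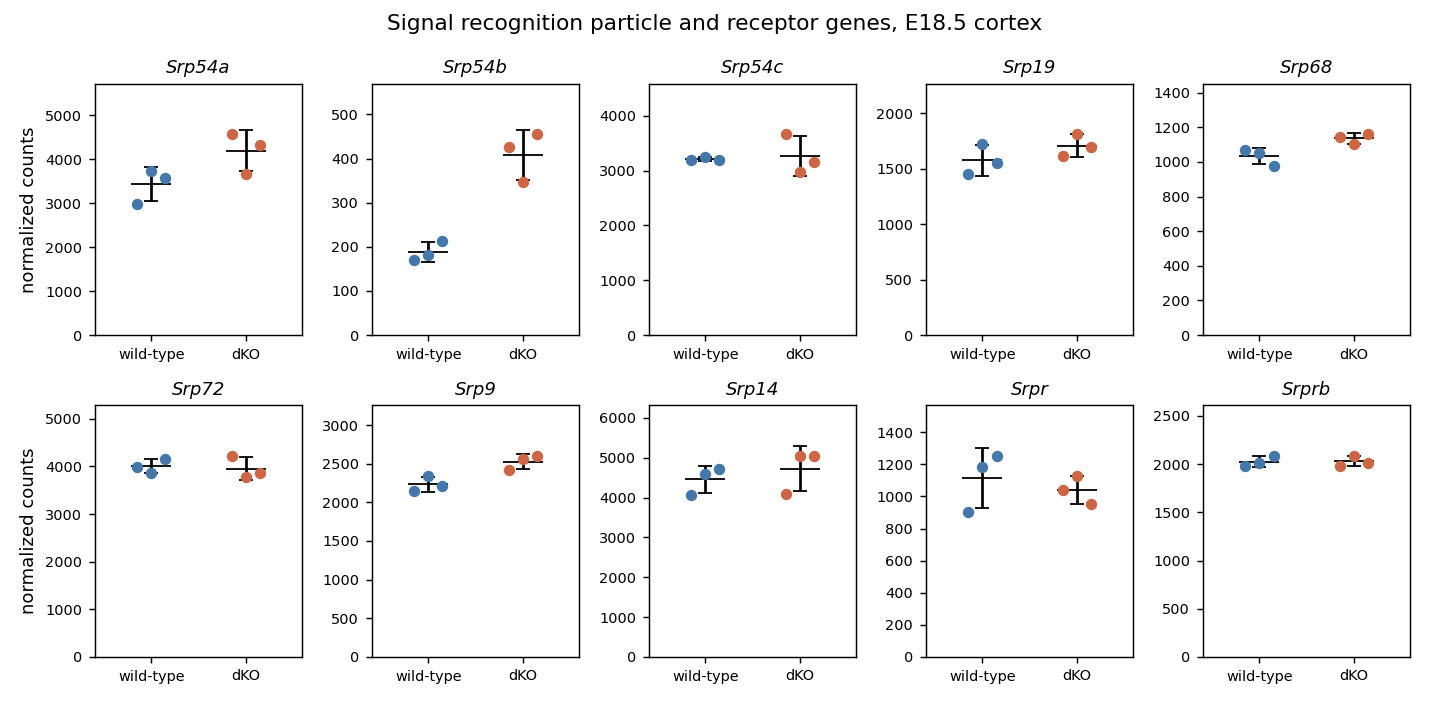
Normalized counts (vertical axis, from 0) of the 10 SRP and receptor genes in each wild-type (blue) and dKO (orange) library, in the order 1 to 3 from left to right, with the mean and SD of 3 libraries in black. *Srp54b* has the lowest level (169.3 to 213.9 against 346.1 to 455.8), and the genotypes are also apart in *Srp9* and *Srp68*.

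Per kb of exon in GENCODE release M21, *Srp14* had the highest level of the family in wild-type cortex, 3730 ± 289 normalized counts per kb, and *Srp54b* the lowest, 41.6 ± 5.15. Between them came *Srp54c* (882 ± 9.31), *Srp72* (701 ± 24.8), *Srp54a* (644 ± 73.5), *Srprb* (473 ± 12.9), *Srp19* (434 ± 38), *Srp9* (403 ± 17.7), *Srp68* (377 ± 17.3) and *Srpr* (331 ± 55), in normalized counts per kb. The ranges of *Srp72* and *Srp54a* overlapped, and so did those of each neighbouring pair from *Srprb* to *Srpr*, so their order is not resolved. *Srp54b* stayed the lowest in dKO cortex, at 90.7 ± 12.6 normalized counts per kb, against 310 ± 25.7 for *Srpr* and 786 ± 87.9 for *Srp54a*. The exon lengths are those of GENCODE, whose gene spans differ from the listed ones. Listed minus GENCODE, the start of *Srp14* differed by -2098 bases and the end of *Srp54c* by 15493. For *Srpr* the start differed by 11003 bases and the end by -29919. How far this moves the levels per kb was not tested. A copy counted only by its own stretches would appear lower per kb than its RNA.

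The lists of the ER route, which also hold genes of a route without SRP and of a complex that competes with it, had no member past the threshold. 49 of 54 listed genes have a row of their own or a merged one, all 49 were tested, and 0 passed the adjusted threshold with limma, edgeR or DESeq2. Over all features tested, 19 of 18970 (0.1%) passed it with limma, 19 with edgeR and 202 with DESeq2. A count of 0 of 49 is near these shares and is not a result about the lists. *Camlg*, *Btf3* and the SRP RNA genes *Rn7s1*, *Rn7s2* and *Rn7s6* were not analysed here. Unadjusted *P*-values were under 0.05 for 4 of the 49 (8.16%, against 11.5% of all features), 3 with higher and 1 with lower values in dKO. The genotypes did not overlap in 8 of the 49 (16.3%, against 16.4% of all features), so a lack of overlap in a listed gene is not a result about the lists. Log2 fold changes were above 0 for 35 and below for 14, with a median of 0.048 (0.004 over all features) and a range of -0.43 to 0.4. Among all features tested, 9603 were above 0 and 9367 below.

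The median log2 fold change was 0.048 for the 13 genes of the Sec61 translocon and its partners, 0.038 for the 5 of the signal peptidase, which removes the signal sequence, and -0.025 for the 12 of the oligosaccharyltransferase, which adds N-glycans. It was 0.047 for the 10 of the ER membrane protein complex, which inserts transmembrane segments. The 6 genes of tail-anchored protein targeting, a route that works without SRP, all had log2 fold changes above 0 (0.07 to 0.18, median 0.095), and none of the 6 reached an unadjusted *P*-value under 0.05.

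The nascent polypeptide-associated complex binds chains at the ribosome exit and competes with SRP there. Its *Naca* had 6108, 7130 and 6676 normalized counts in wild-type and 7514, 8027 and 8723 in dKO libraries, with no overlap. The log2 fold change of *Naca* was 0.29 (standard error 0.09, 95% interval 0.09 to 0.48, unadjusted p = 0.00804 and adjusted p = 0.335 from limma). *Btf3l4*, which belongs to the family of the partner subunit, had 2601 ± 250 and 3166 ± 274 normalized counts, also with no overlap. The log2 fold change of *Btf3l4* was 0.28 (95% interval 0.07 to 0.5, unadjusted p = 0.0147 from limma). Like *Naca* it did not pass the threshold (adjusted p = 0.36 from limma). *Nacad* had 6191 ± 67.9 and 6194 ± 518. The median log2 fold change of these 3 genes was 0.284. An unadjusted *P*-value under 0.05 and a lack of overlap were each found in 2 of 3, against 11.5% and 16.4% of all features. These counts rest on 2 genes and are not a result about the complex.

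With *Naca*, the highest log2 fold changes among listed genes with a mean of at least 50 were those of *Sec61g*, the small γ subunit of the channel, and *Tmem258*, a subunit of the oligosaccharyltransferase. *Sec61g* had 450.8, 597.2 and 543.6 normalized counts in wild-type and 490.1, 796.9 and 857.1 in dKO libraries (log2 fold change 0.4, standard error 0.2, adjusted p = 0.483 from limma). *Tmem258* had 2074 ± 318 and 2619 ± 689 normalized counts (0.31, standard error 0.2, adjusted p = 0.57 from limma). In both genes the first dKO library lay within the wild-type range and the other two lay above it.

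The lowest log2 fold changes were those of *Emc9*, *Magt1* and *Sec11c*. *Emc9*, of the ER membrane protein complex, had 231.1, 207.3 and 209.5 against 132.5, 186.1 and 167.0 normalized counts, with no overlap (-0.43, standard error 0.17, adjusted p = 0.399 from limma). *Magt1*, a subunit of the oligosaccharyltransferase, had 229 ± 23.8 and 185 ± 9.74 with no overlap (-0.3, standard error 0.15, adjusted p = 0.483 from limma). *Sec11c*, a catalytic subunit of the signal peptidase, had 555 ± 58.7 and 464 ± 50.5, and its groups overlapped (-0.26, standard error 0.13, adjusted p = 0.477 from limma).

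**Figure D4:**
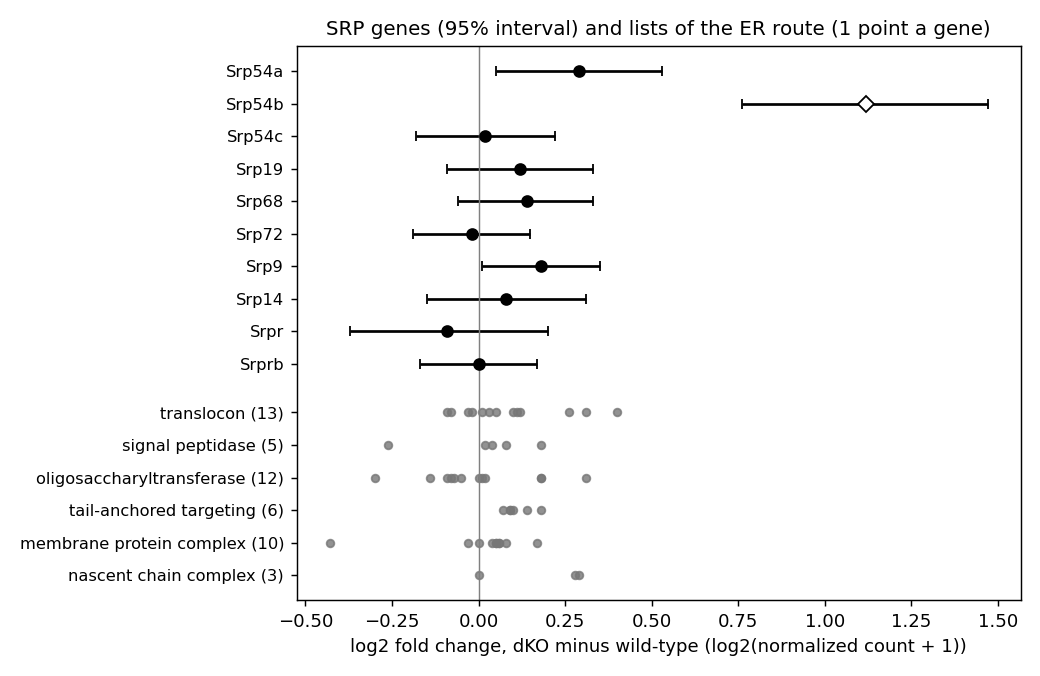
Log2 fold changes (horizontal axis, dKO minus wild-type, on log2(normalized count + 1)) of the 10 SRP genes with 95% intervals from limma, and below them 1 point for each gene of the lists of the ER route. *Srp54b* (open diamond, the gene that chose the family) stands at 1.12, the other 9 genes lie between -0.09 and 0.29 and the 49 listed genes between -0.43 and 0.4.

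The genes around the *Srp54* copies were examined to see whether the stretch of chromosome 12 as a whole differed between the genotypes. Within 500 kb of the copies the table has 34 other features, of which 14 were tested. 0 of the 14 passed the adjusted threshold with limma, edgeR or DESeq2. This threshold was passed by 19 of all 18970 features tested (0.1%) with limma, 19 with edgeR and 202 with DESeq2. A count of 0 of 14 is near these shares, so it cannot show whether the stretch differed. An unadjusted *P*-value under 0.05 was found for 2 of the 14 (14.3%, against 11.5% of all features). 12 had a log2 fold change above 0 and 2 had one below, with a median of 0.156, beside 9603 above and 9367 below and a median of 0.004 over all features. In 0 of the 14 the genotypes stood without overlap, against 16.4% of all features.

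The tested feature that lies between *Srp54a* and *Srp54b*, annotated as *Fam177a* and *1700047I17Rik2* (its start is at -30.6 kb from that of *Srp54b*), had 6116, 6727 and 7112 normalized counts in wild-type and 8636, 6954 and 7640 in dKO libraries. Its groups overlapped, and its log2 fold change was 0.22 (standard error 0.1, unadjusted p = 0.0469 and adjusted p = 0.426 from limma). *Baz1a*, a chromatin remodelling subunit with its start at -262.1 kb from that of *Srp54b*, had 244.4, 207.3 and 180.6 against 319.4, 226.9 and 366.5, with the highest log2 fold change of the tested neighbours (0.51, standard error 0.2, 95% interval 0.07 to 0.95, adjusted p = 0.393 from limma). Its groups overlapped as well. *Baz1a* and the feature of *Fam177a* were named after their values were seen. On the other side, *Ppp2r3c*, which overlaps the span of *Srp54c*, had 1411 ± 98.7 and 1439 ± 39.4 normalized counts (log2 fold change 0.03, adjusted p = 0.917 from limma).

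**Figure D5:**
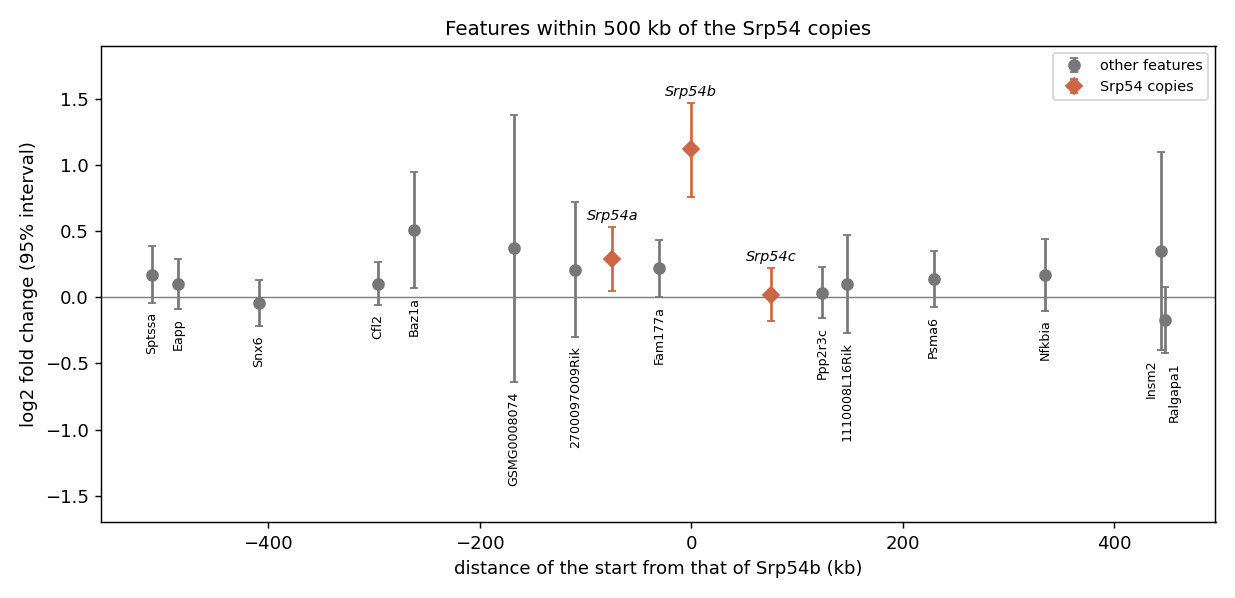
Log2 fold change with its 95% interval from limma (vertical axis) against the distance of a feature's start from that of *Srp54b* in kb (horizontal axis), for the 3 *Srp54* copies (orange) and the 14 tested features within 500 kb of them (grey). *Srp54b* stands at 1.12, while the others lie between -0.17 and 0.51.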

How the data were processed

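PolyA+ RNA of E18.5 cortex was sequenced from TruSeq Stranded mRNA libraries as 150 bp paired-end reads, and the genotype given in the labels set the groups (3 wild-type, 3 dKO). The authors deposited a signal per feature of the FAST database, namely read counts scaled by the size factor of the library. The submitters' processing notes name STAR 2.7.5a, SAMtools, Picard, FastQC, DESeq2 and the build mm10. The counting program and its strand setting are not given in the sources used here. Divided by the value of 1 read (0.877 to 1.16), 100.0% of the values above 0 came within 0.01 of a whole number in every library, which gave back the reads. Features without a symbol (8.48% to 9.62% of the reads) were kept.

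The genotypes were compared with limma 3.58.1 under R 4.3.3, with its trend and robust options, on log2(normalized count + 1). The 18970 features averaging 10 or more entered the fit, with Benjamini-Hochberg adjustment and a threshold of 0.05. Fold changes on this scale understate the change of low features. For sums and shares without *Srp54b*, an exact two-sided permutation test was used. *Srp54* transcripts came from GENCODE release M21 (GRCm38, the assembly of mm10) and were compared with Python 3.11.15 and edlib 1.3.9.post1. The fit was tested beforehand on simulated counts with 200 changed genes. Their changes were larger than those of the tested SRP genes, so that test does not cover changes of this size.

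The members and all lists were chosen with earlier results of these data known. Named were all SRP genes, the 3 genes of the ER lists with the largest and the 3 with the smallest log2 fold change at a mean of at least 50, and the 3 features most like *Srp54b* across libraries. Other genes were named after their values were seen. Alternatives were pseudocounts of 0.1 and 10, means of at least 1 and 50, limma without both options, TMM and quantile normalization, the recovered reads in edgeR 4.0.16 and DESeq2 1.42.0, a block for the replicate number, 1 library left out at a time, an unadjusted threshold and a window of 1 Mb. Leaving out both libraries numbered 1 was chosen after seeing the data. Splicing was not analysed here.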

Additional observations from a re-analysis of the deposited data

How the results depend on the processing

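With pseudocounts of 0.1 and 10, other filters, TMM and quantile normalization, edgeR and DESeq2 on the recovered reads, and each library left out, 0 of the 9 SRP genes other than *Srp54b*, 0 genes of the ER lists and 0 neighbours passed the adjusted threshold, and within 1 Mb of the copies it was 0 of 17 features. At an unadjusted threshold these became 2, 4 and 2. Over all features the adjusted calls numbered 19 with limma and with edgeR, 202 with DESeq2, 7 without the trend and robust options, 5 without both libraries numbered 1, and 7 to 46 with each library left out (8, 32, 10, 46, 13 and 7 without wild-type replicates 1 to 3 and dKO replicates 1 to 3). Replicate numbers did not pair the libraries (correlations of same-numbered deviations 0.098, -0.228 and -0.079, and wild-type library 1 alone correlated best with its own number); with a block for the number there were 9 calls over all features, 0 among the SRP genes, and *Srp54b* kept 1.12. The small log2 fold changes of 4 genes changed sign. *Srp54c* was at -0.04 under quantile normalization and -0.07 without both libraries numbered 1 (-0.07 to 0.08 with each library left out), *Srp72* at -0.07 to 0.01, *Srpr* at -0.23 to 0.01, and *Srprb* at -0.05 under quantile normalization, -0.00095 with DESeq2 and -0.02 to 0.02. The cause was not tested. Adjusted p ranged over the alternatives from 0.245 to 0.774 for *Srp54a*, from 0.323 to 0.8 for *Srp9* and from 0.521 to 0.85 for *Srp68*. The 168 to 469 reads of *Srp54b* per library, and 3 libraries a genotype, limit what could be detected.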

Other observations

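Features with a symbol and a mean of at least 50 were compared with *Srp54b* across the 6 libraries, on log2(normalized count + 1). Of 12732 compared, the highest correlations were those of *Cstf1* (Pearson's r 0.992), *Eif3l* (0.991) and *Zfp358* (0.987). Their log2 fold changes were 0.13, 0.24 and 0.22, against 1.12 for *Srp54b*, since r does not measure the size of a change. *Cstf1* had 942.5, 958.1 and 983.7 normalized counts in wild-type and 1067, 1039 and 1060 in dKO libraries, *Eif3l* had 7847 ± 108 and 9265 ± 157, and *Zfp358* had 4253 ± 176 and 4963 ± 225. These were picked as the closest of many over 6 libraries of 2 genotypes, and are a description. Within the family, r with *Srp54b* was 0.86 for *Srp9*, 0.83 for *Srp54a* and 0.79 for *Srp68*. For the rest it lay between -0.21 (*Srpr*) and 0.48 (*Srp19*). Each r was taken over both genotypes and so includes the step by which *Srp54b* was selected. *Srp9*, *Srp54a* and *Srp68* also had the highest log2 fold changes of the tested family members (0.18, 0.29 and 0.14). Whether r holds within a genotype was not tested, nor was the part of reads that *Srp54a* and *Srp54b* share.

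Between the copies other than *Srp54b*, the share of *Srp54a* in the sum of *Srp54a* and *Srp54c* was 48.4%, 53.5% and 52.7% in wild-type and 55.5%, 55.3% and 57.8% in dKO libraries, with no overlap. The difference was 4.63 percentage points (p = 0.1, exact two-sided permutation test, the smallest value that 3 against 3 allow). Any share without overlap gives this p, so it adds nothing to the lack of overlap. This share was chosen after the values of the copies were seen, and how much of it comes from reads that the copies share was not tested.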
